A study of Mus musculus with 6 samples.

Results

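Transforming growth factor beta (TGF-beta) and the bone morphogenetic proteins (BMPs) are secreted ligands of one superfamily, and the genes of both arms of their signalling were examined in kidney epithelium of mice deficient for fumarate hydratase. Genes were taken by name, and the names and arms were chosen with earlier results of these data known. Used were probe sets listing exactly 1 gene whose symbol begins with Tgfb, Bmp and a digit, Bmpr, Smad, Acvr, Inhb, Ltbp, Grem or Smurf. Added were those of Inha, Nog, Chrd, Fst, Fstl1, Fstl3, Bambi, Id1 to Id4, Ski, Skil and Tgif1, and Bmp1 was left out. This gave 61 genes of the 18193 genes measured. By role, 27 were placed in the TGF-beta and activin arm, 26 in the BMP arm and 7 in both. Bmp2k, a kinase that matched by name alone, stood outside. The tissue was dissected from cystic kidneys of Fh1 knockout mice (3 samples) and from kidneys of disease-free wild-type littermates matched for sex (3 samples), each measured on 1 Affymetrix array. The labels give neither strain nor age, nor how Fh1 was deleted or which promoter drove any recombinase. Nothing in the labels says that each sample is a separate animal, so p-values cover only the sample-to-sample spread here, which may be technical.

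Both arms begin with a dimeric ligand that joins type I and type II receptor kinases. TGF-beta is secreted in a latent complex, tied to the matrix by the latent TGF-beta binding proteins (LTBPs), and once freed it drives phosphorylation of Smad2 and Smad3, which leads to transcription of matrix genes and, in kidney, is best known for fibrosis. BMPs are held in check by soluble antagonists such as gremlin and noggin, act through Smad1, Smad5 and Smad9 and induce the Id genes. Smad4 partners the Smads of both arms. Bmp7 is needed for nephron formation and is made by the adult tubule.

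Expression is given as RMA values in log2 units, in which a difference of 1 is a 2-fold change. A gene was called higher or lower where limma's adjusted p was under 0.05. Changes are knockout minus wild type, with a standard error (SE) from the fit. Fh1, the targeted gene, read 12.41, 12.34 and 12.22 in wild-type samples 1 to 3 and 11.54, 11.60 and 11.61 in knockout samples 1 to 3, 1.67-fold lower with no overlap. The labels do not say which part of the gene was removed, so this reading is no full check of the labels. Epithelial markers were bright in both groups: Lrp2, the proximal tubule receptor megalin, averaged 13.22 in wild-type and 11.69 in knockout samples, and Umod, uromodulin of the thick limb, 14.17 and 13.58. Markers of several cell types differed between the groups. Of 19 proximal tubule markers 17 were lower, and 11 of 19 fibroblast and myofibroblast markers and 18 of 20 immune markers were higher. Of 18 distal nephron and collecting duct markers, Umod among them, 12 were lower, 8 at least 2-fold, and none was higher. Of 9 podocyte markers 2 were higher and 5 lower. Of 17 endothelial markers 4 were higher and 8 lower. Over all genes 21.6% were called higher and 27.7% lower. In tissue samples of this kind, fewer cells of a type and less RNA per cell cannot be told apart.

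More of the TGF-beta arm than of the BMP arm was higher in the knockout. Of 27 genes of the TGF-beta and activin arm 13 were higher and 7 lower, and of 26 in the BMP arm 8 were higher and 6 lower. Among the 7 shared genes 2 were higher and 2 lower. Over all 61 genes the counts were 23 higher and 15 lower, against a background of 49.2% of all genes called, 21.6% higher and 27.7% lower. The share called lower, 24.6%, was thus near the background, and the share called higher, 37.7%, was above it. Of the 38 called genes 25 had another probe set. In 14 of these another was called the same way, and in 5, among them Inhbb, counted here as lower, the other way. Changes of at least 2-fold were found in 6 genes of the TGF-beta arm and 2 of the BMP arm, and in the probe sets used each was an increase. Over all 18193 genes 990 were called at least 2-fold higher and 617 at least 2-fold lower. Bmp7 was over 2-fold lower in its other 2 probe sets (-1.63 and -1.52) and in the mean of all 3 (-1.31, adjusted p = 1.99e-04). The median change was 0.25 in the TGF-beta arm and -0.02 in the BMP arm, beside -0.11 over all genes. The difference between the arms was not tested. The lower counts were the less stable ones: without knockout 1 there were 8 lower genes (3 in each arm), without knockout 3 there were 9 (4 in the TGF-beta arm and 3 in the BMP arm), and without wild-type 3 the BMP arm had 3. With cyclic loess normalisation 24 of the 61 genes were higher and 10 lower, and over all genes 3942 and 3435, against 3928 and 5031 as deposited.

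**Figure D1:**
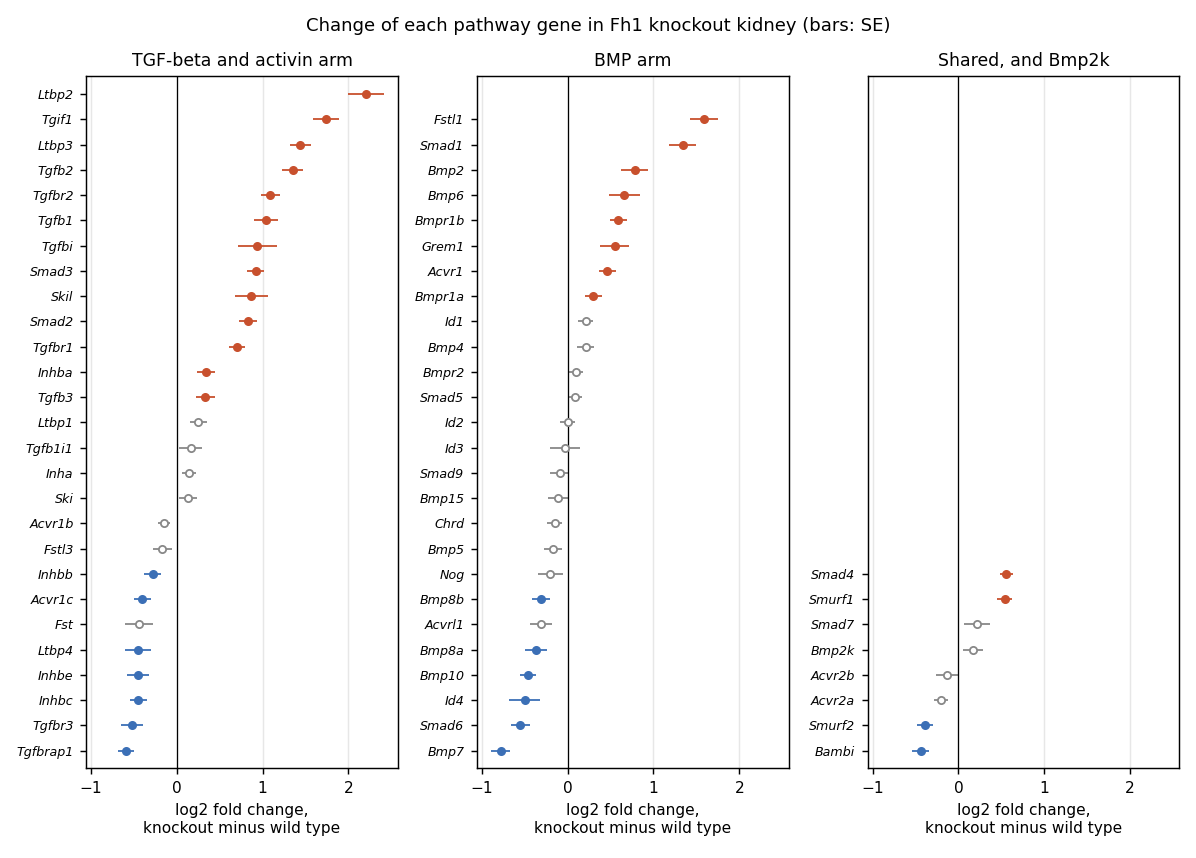
Log2 fold change (knockout minus wild type) of each of the 61 genes with its SE, in the TGF-beta and activin arm, the BMP arm, and the shared genes with Bmp2k. Filled red points were called higher, filled blue points lower and open grey points were not called. In the first panel 11 genes lie beyond 0.5 on the higher side, led by Ltbp2 at 2.20, and in the second Bmp7 is the lowest at -0.78.

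The first bases around the start of 5 of these genes are shown because they hold motifs that Smad proteins are known to bind. CAGAC, or GTCTG on the other strand, is the core of the element bound by Smad3 and Smad4, and GGCGCC, which reads the same on both strands, is a GC-rich element bound by the BMP Smads. The motifs can overlap each other by 1 base. Windows of 300 bases, 250 before and 50 after the start, come from RefSeq (GRCm38.p6) and run 5′ to 3′ along the gene, with matches in capitals. They are Ltbp2 (chr12:84876442-84876741, minus strand), Ltbp3 (chr19:5740650-5740949, plus strand), Tgfb2 (chr1:186705940-186706239, minus strand) and Tgfbr2 (chr9:116175314-116175613, minus strand), which rose, and Id4 (chr13:48260866-48261165, plus strand), which was called lower. That Id4 call was lost in 8 of 16 alternatives.
Ltbp2: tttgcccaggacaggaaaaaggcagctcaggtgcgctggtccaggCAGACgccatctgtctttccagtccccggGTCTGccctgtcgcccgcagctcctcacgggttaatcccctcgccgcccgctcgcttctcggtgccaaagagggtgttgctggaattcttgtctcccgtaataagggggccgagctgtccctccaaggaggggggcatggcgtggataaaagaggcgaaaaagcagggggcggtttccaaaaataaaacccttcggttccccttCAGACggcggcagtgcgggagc
Ltbp3: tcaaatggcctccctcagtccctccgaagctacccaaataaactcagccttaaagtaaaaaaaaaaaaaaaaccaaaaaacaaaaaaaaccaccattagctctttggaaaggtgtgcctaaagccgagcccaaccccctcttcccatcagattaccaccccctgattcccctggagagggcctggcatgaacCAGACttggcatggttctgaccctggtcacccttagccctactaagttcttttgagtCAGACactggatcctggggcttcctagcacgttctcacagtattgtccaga
Tgfb2: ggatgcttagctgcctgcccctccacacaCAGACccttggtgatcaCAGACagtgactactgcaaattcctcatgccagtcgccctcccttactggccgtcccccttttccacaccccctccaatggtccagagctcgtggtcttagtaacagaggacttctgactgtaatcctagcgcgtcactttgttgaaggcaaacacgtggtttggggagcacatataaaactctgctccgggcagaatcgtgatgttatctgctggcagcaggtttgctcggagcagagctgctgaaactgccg
Tgfbr2: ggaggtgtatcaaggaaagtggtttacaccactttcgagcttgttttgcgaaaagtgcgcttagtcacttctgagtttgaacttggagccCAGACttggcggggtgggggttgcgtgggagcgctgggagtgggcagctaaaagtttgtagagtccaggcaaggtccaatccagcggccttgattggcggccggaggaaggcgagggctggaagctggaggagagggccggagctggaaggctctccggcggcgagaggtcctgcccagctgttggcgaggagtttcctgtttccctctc
Id4: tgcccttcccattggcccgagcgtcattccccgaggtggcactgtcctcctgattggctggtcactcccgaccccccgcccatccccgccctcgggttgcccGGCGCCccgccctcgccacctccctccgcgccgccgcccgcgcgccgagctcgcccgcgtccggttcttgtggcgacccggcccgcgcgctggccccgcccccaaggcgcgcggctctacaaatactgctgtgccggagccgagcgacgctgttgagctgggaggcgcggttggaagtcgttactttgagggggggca

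CAGAC on either strand was found 3 times in the Ltbp2 window, 2 times in those of Ltbp3 and Tgfb2 and 1 time in that of Tgfbr2. It is a common motif: 30 of the 61 windows of 47 pathway genes held it (49.2%), as did 49.6% of all 32851 windows. The Id4 window held GGCGCC 1 time. This motif was in 18 of the 61 pathway windows (29.5%) and 11.9% of all windows, and the pathway windows were also richer in G and C, with a median of 64.3% against 52.7%. Of 25 windows of genes called higher 4 held GGCGCC and 14 held CAGAC. Of 16 windows of genes called lower 5 held GGCGCC and 6 held CAGAC. Neither split was tested. The windows of Tgfb1, Smad1, Smad3 and Fstl1, which also rose, held no CAGAC. A match shows the letters only, and several genes have more than 1 window.

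All 3 TGF-beta ligand genes were higher in the knockout. Tgfb2 read 5.69, 5.69 and 5.35 in wild-type samples and 6.80, 6.96 and 7.03 in knockout samples, 2.55-fold higher (log2 fold change 1.35, SE 0.12, adjusted p = 1.34e-04). Tgfb1, the isoform most studied in renal fibrosis, read 6.74, 6.52 and 6.97 in wild-type and 7.62, 7.73 and 8.00 in knockout samples, 2.06-fold higher (log2 fold change 1.04, SE 0.14, adjusted p = 0.00102). In both genes every knockout sample lay well above every wild-type sample. Tgfb3 read 5.60, 5.49 and 5.61 against 5.83, 5.73 and 6.11, a change of 0.33 (SE 0.11, adjusted p = 0.0433) with a narrow gap between the groups. The call of Tgfb3 was lost when any 1 sample other than knockout 2 was left out, its change then being 0.22 to 0.35 with an adjusted p between 0.0628 and 0.128, and with re-centred values (0.25, adjusted p = 0.0854). The other Tgfb1 probe set, a dimmer one, was lower (-0.47), and the mean of both gave 0.29 with adjusted p = 0.109.

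The genes that store the latent ligand did not move as one. Ltbp2, a matrix protein that resembles its relatives but does not bind TGF-beta, had the widest change of all 61 genes. It read 5.29, 5.17 and 5.62 in wild-type and 7.24, 7.42 and 8.02 in knockout samples, 4.60-fold higher (log2 fold change 2.20, SE 0.21, adjusted p = 1.84e-04). Ltbp3, which does bind the latent complex, read 8.59, 8.64 and 8.23 against 9.87, 10.04 and 9.88, 2.72-fold higher (log2 fold change 1.44, SE 0.12, adjusted p = 1.23e-04), and its other 3 probe sets were called higher as well, by 0.91 to 1.43. Ltbp1 had a change of 0.25 that was not called (SE 0.10, adjusted p = 0.0664), but was called without wild-type 1 (0.33, adjusted p = 0.0314) and with cyclic loess normalisation (0.30, adjusted p = 0.0443). Ltbp4, which also binds latent TGF-beta, was lower, with a change of -0.45 (SE 0.15, adjusted p = 0.0366), but knockout 3 at 7.65 lay above wild-type 2 at 7.63. Without wild-type 1, wild-type 3, knockout 1 or knockout 2 Ltbp4 was not called, at -0.35 to -0.44.

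Activin subunit genes were dim and moved little in the probe sets used. Inhba, the activin A subunit, was called higher at 0.34 (SE 0.10, adjusted p = 0.0262), and Inhbc and Inhbe lower at -0.45 each. The Inhba call was lost without wild-type 1, wild-type 2, knockout 1 or knockout 2 (0.27 to 0.33), in the mean of its probe sets (0.05) and with re-centred (0.26) or quantile normalised values (0.29), and that of Inhbe without knockout 1 (-0.46, adjusted p = 0.0650) or knockout 3 (-0.39, adjusted p = 0.0873). With cyclic loess normalisation neither Inhbc (-0.26, adjusted p = 0.0639) nor Inhbe (-0.26, adjusted p = 0.162) was called, and with quantile normalisation Inhbe was not (-0.27). Inhbb, the activin B subunit, cannot be given a direction. Its brighter probe set averaged 6.75 in wild-type and 6.47 in knockout samples and was called lower (-0.28, SE 0.10, adjusted p = 0.0414), whereas the other averaged 5.07 and 7.02 and was called higher (1.95, SE 0.17, adjusted p over all probe sets 1.28e-04). The lower call was lost without wild-type 1 or 3 or knockout 1 or 3 (-0.24 to -0.27) and with cyclic loess normalisation (-0.17). Inha, the inhibin subunit, and Fst and Fstl3, which bind and block activins, were not called. Fst lay at the threshold, at -0.44 (SE 0.16, adjusted p = 0.0505), and was called lower in 7 of 15 alternatives, among them the mean of its probe sets (-0.39, adjusted p = 0.0187), quantile normalisation (-0.52, adjusted p = 0.0315) and the set without wild-type 3 (-0.58, adjusted p = 0.0216).

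The signalling receptors for TGF-beta rose while its co-receptor fell. Tgfbr2, the type II kinase that binds the ligand, read 10.42, 10.08 and 10.18 in wild-type samples and 11.22, 11.34 and 11.40 in knockout samples, 2.13-fold higher (log2 fold change 1.09, SE 0.11, adjusted p = 2.20e-04). Tgfbr1, the type I kinase that phosphorylates Smad2 and Smad3, read 10.25, 10.40 and 10.13 against 10.96, 10.91 and 11.00, 1.62-fold higher (log2 fold change 0.70, SE 0.09). Both sets of knockout samples were tight and lay wholly above the wild-type samples. The 2 dimmer probe sets of each gene did not pass, with changes of -0.13 to 0.24. Tgfbr3, betaglycan, which presents TGF-beta to the type II receptor, read 9.76, 9.53 and 9.83 against 9.00, 9.17 and 9.38 and was 1.43-fold lower (log2 fold change -0.52, SE 0.13, adjusted p = 0.0123), as was its second probe set (-0.68). Of the activin type I receptors, Acvr1b was not called (-0.15) and Acvr1c was called lower at -0.40, a call lost without knockout 1 (-0.38, adjusted p = 0.0597) or knockout 3 (-0.33, adjusted p = 0.0594), in the mean of its probe sets (-0.18) and with quantile (-0.23) or cyclic loess normalisation (-0.21). Tgfbrap1, which binds TGF-beta receptors and Smad4, read 10.08, 10.11 and 10.28 against 9.62, 9.46 and 9.61, and all 3 of its probe sets were called lower, by -0.46 to -0.78.

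The Smads of the TGF-beta arm and the common partner rose together. Smad3 read 9.02, 9.14 and 9.12 in wild-type and 10.15, 9.88 and 10.02 in knockout samples, 1.89-fold higher (log2 fold change 0.92, SE 0.10, adjusted p = 2.73e-04). Smad2 read 8.72, 8.41 and 8.67 against 9.44, 9.55 and 9.29, 1.77-fold higher (log2 fold change 0.83, SE 0.11). Smad4 read 10.78, 10.75 and 10.75 against 11.43, 11.29 and 11.23, 1.47-fold higher (log2 fold change 0.56, SE 0.08). A further probe set of Smad3 (0.27) and of Smad4 (0.34) was not called, whereas the rest were called higher, by 0.42 to 0.80. In the probe sets used for these 3 genes the distance between the groups was several times the spread within either group. Nuclear repressors of Smad transcription rose with them. Tgif1, a homeodomain corepressor of Smad2 and Smad3, read 7.78, 7.75 and 8.30 against 9.68, 9.78 and 9.62, 3.35-fold higher (log2 fold change 1.74, SE 0.15, adjusted p = 1.26e-04). Skil, which encodes the repressor SnoN and is itself induced by TGF-beta, read 10.39, 10.11 and 9.55 against 10.86, 10.92 and 10.90, 1.83-fold higher (log2 fold change 0.87, SE 0.19, adjusted p = 0.00846). Its wild-type samples were spread and its knockout samples almost equal. The other Skil probe set, a dimmer one, was not called (0.21). Ski, the relative of Skil, was not called (0.13, SE 0.11), except without wild-type 3 (adjusted p = 0.0367).

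**Figure D2:**
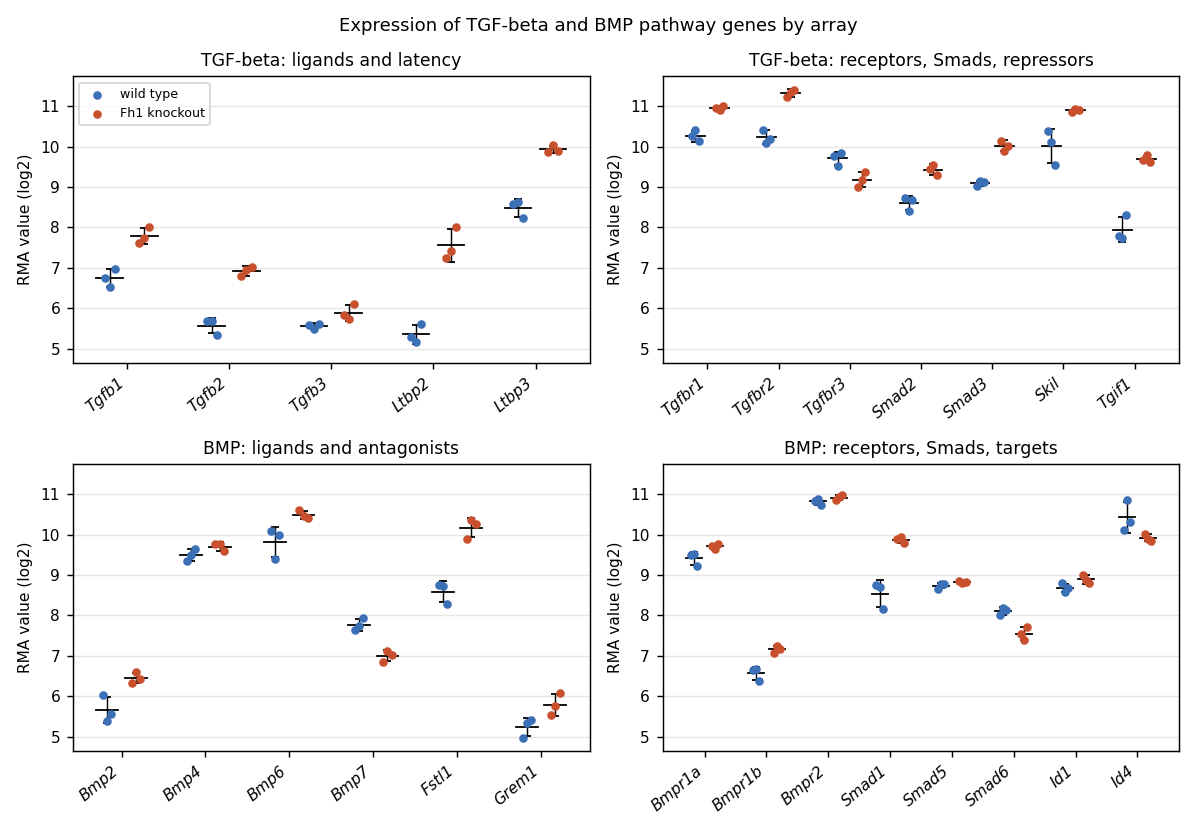
RMA values (log2) of 26 named genes in the 3 wild-type (blue) and 3 Fh1 knockout (red) samples, with the group mean (horizontal line) and SD (bar). In the upper panels the knockout samples of Tgfb2 sit between 6.80 and 7.03, above the highest wild-type sample at 5.69, and in the lower panels those of Bmp7 lie below the wild-type samples.

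BMP ligand genes went in opposite directions. Bmp7 read 7.65, 7.73 and 7.94 in wild-type and 6.86, 7.13 and 7.01 in knockout samples, 1.71-fold lower (log2 fold change -0.78, SE 0.11, adjusted p = 0.00112). Its other probe sets, with means of 8.06 and 7.17 in wild-type samples, fell further, by -1.63 (SE 0.18) and -1.52 (SE 0.15), so the probe set used gave the smallest of 3 falls. Bmp2 rose 1.72-fold, from 6.03, 5.40 and 5.57 to 6.34, 6.59 and 6.42 (log2 fold change 0.78, SE 0.16, adjusted p = 0.00668). Bmp6, best known as the ligand that sets hepcidin by iron, read 10.08, 9.40 and 9.99 against 10.60, 10.45 and 10.41 (log2 fold change 0.66, SE 0.18, adjusted p = 0.0181). Wild-type 2 was the lowest of all for Bmp6, and without knockout 1 the call was lost (0.60, adjusted p = 0.0636). Bmp4 read 9.34, 9.50 and 9.64 against 9.76, 9.77 and 9.58, overlapped between groups and was not called (0.21, SE 0.10, adjusted p = 0.121).

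The remaining BMP ligands lay in the dim part of the arrays, at the 38.0th signal percentile or lower, as did Bmp2 at the 33.3rd. Bmp10, a ligand of the heart, was called lower at -0.46, Bmp8a at -0.37 and Bmp8b at -0.31, and Bmp5 and Bmp15 were not called. Dim probe sets as a whole read lower in the knockout: among all genes below the median signal 30.5% were called lower and 11.7% higher, with a median change of -0.19, against 24.8% lower, 31.4% higher and a median of 0.05 above it. Whether this shift accounts for the calls of these ligands was not tested. Under a cyclic loess normalisation between samples, added after the data were seen, the changes of Bmp8a and Bmp8b were -0.19 and -0.13 and neither was called, whereas Bmp10 kept its call (-0.33, adjusted p = 0.0241), as it did in all 15 alternatives. Quantile normalisation also ended the calls of Bmp8a (-0.28, adjusted p = 0.102) and Bmp8b (-0.14, adjusted p = 0.233). Bmp8a was also not called without any 1 sample other than knockout 2 (-0.26 to -0.42), nor Bmp8b without wild-type 1 or 3 or knockout 1 or 3 (-0.25 to -0.30).

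Among BMP antagonists 2 of 4 were higher and none lower, against 21.6% higher and 27.7% lower over all genes. Fstl1, a secreted glycoprotein that binds BMP4, read 8.75, 8.72 and 8.29 in wild-type and 9.90, 10.36 and 10.26 in knockout samples, 3.00-fold higher (log2 fold change 1.59, SE 0.16, adjusted p = 2.72e-04), and its second probe set rose by 1.02. Grem1, gremlin, which blocks BMP2, BMP4 and BMP7, read 4.98, 5.33 and 5.41 against 5.53, 5.77 and 6.08 (log2 fold change 0.55, SE 0.17, adjusted p = 0.0273). The Grem1 probe set was dim, at the 26.3rd signal percentile. Wild-type 3 and knockout 1 stood close together for Grem1, and the call was lost without wild-type 1 (0.43, adjusted p = 0.0745), knockout 2 (0.57, adjusted p = 0.0679) or knockout 3 (0.41, adjusted p = 0.0830). Chordin (Chrd, -0.15) and noggin (Nog, -0.20) were not called. Fibroblast markers had summed linear signals of 5539 to 6892 in wild-type and 11493 to 21612 in knockout samples, and their part in these changes was not tested.

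BMP receptors changed little where they were bright. Bmpr2, the type II receptor, read 10.84, 10.88 and 10.73 against 10.85, 10.92 and 10.97 and was not called (0.10, SE 0.08, adjusted p = 0.330). Bmpr1a, a type I receptor, read 9.50, 9.51 and 9.23 against 9.71, 9.65 and 9.77 and was called higher by 0.30 (SE 0.10, adjusted p = 0.0417). Without wild-type 3, knockout 1, knockout 2 or knockout 3 the Bmpr1a call was lost, at 0.20 to 0.33, as it was with re-centred (0.22), quantile (0.24) or cyclic loess normalised values (0.22). Of its 5 other probe sets 3 were called higher (0.45 to 0.57) and 1, a dim one, lower (-0.40). Bmpr1b, the other type I receptor of this name, read 6.65, 6.67 and 6.39 against 7.08, 7.24 and 7.17, 1.51-fold higher (log2 fold change 0.59, SE 0.10), and a dimmer probe set was lower (-0.30). Acvr1, which also signals for BMPs, was called higher at 0.46, with a dimmer probe set lower at -0.36, and the endothelial receptor gene Acvrl1 was not called (-0.31, adjusted p = 0.0878). In the mean of all their probe sets neither Bmpr1b nor Acvr1 was called, at 0.05 each.

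**Figure D3:**
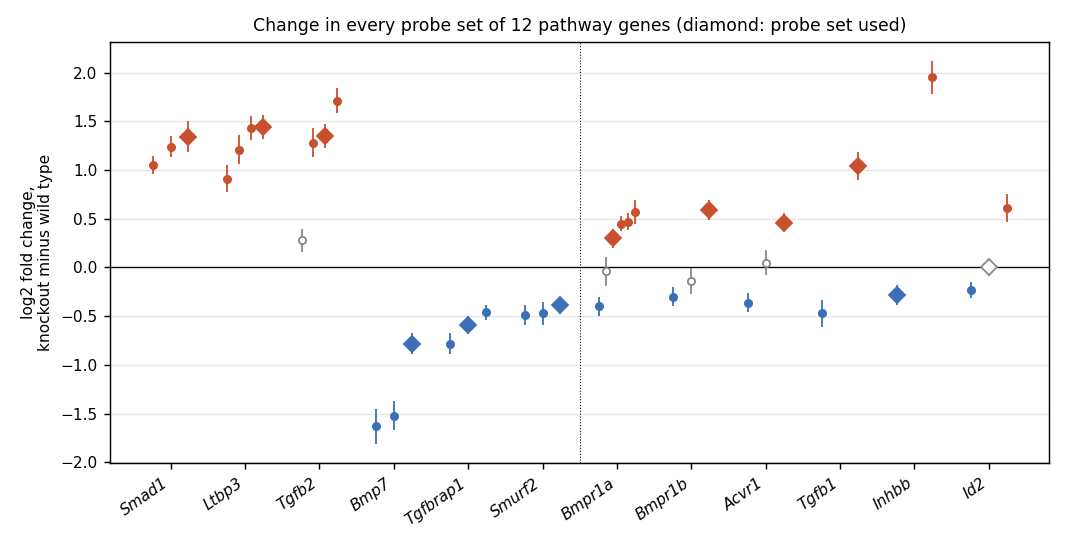
Log2 fold change (knockout minus wild type) with SE in every probe set of 12 genes. Diamonds mark the probe set used; red was called higher, blue lower and open grey was not called, with p adjusted over all probe sets. Left of the dotted line the called probe sets of each gene share 1 direction, and right of it they do not, as for Inhbb at -0.28 and 1.95.

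Only 1 of the 3 Smads of the BMP arm rose. Smad1 read 8.74, 8.71 and 8.15 in wild-type samples and 9.88, 9.94 and 9.79 in knockout samples, 2.53-fold higher (log2 fold change 1.34, SE 0.16, adjusted p = 4.89e-04), and its other 2 probe sets rose by 1.24 and 1.05. Wild-type 3 was the lowest of the wild-type samples and the knockout samples were nearly equal. Smad5 read 8.66, 8.77 and 8.77 against 8.84, 8.81 and 8.82, with a change of 0.09 (SE 0.08) that was not called. Smad9 was dim (11.2th signal percentile) and not called (-0.09). Smad6, the inhibitory Smad that damps BMP signals and is switched on by them, read 8.00, 8.19 and 8.13 against 7.54, 7.40 and 7.71, 1.47-fold lower (log2 fold change -0.55, SE 0.11, adjusted p = 0.00432). Smad7, the inhibitory Smad of both arms, was not called in either of its probe sets (0.22 and 0.24), although their mean was (0.23, adjusted p = 0.0309), with wild-type 3 at 7.52 below the other 5 samples.

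The Id genes, direct targets of BMP Smads that encode inhibitors of basic helix-loop-helix factors, were for the most part not called. Id1 read 8.79, 8.59 and 8.68 against 9.01, 8.88 and 8.79 and was not called (0.21, SE 0.09, adjusted p = 0.100). Id2 averaged 12.34 in both groups, although its dimmer probe sets were called in opposite directions (-0.23 and 0.61). Id3 had a change of -0.03 with SE 0.17, wide because wild-type 3 read 9.14 and wild-type 1 9.82. Id4 alone was called, and lower: it read 10.12, 10.85 and 10.31 against 10.02, 9.89 and 9.85, 1.42-fold lower (log2 fold change -0.50, SE 0.18, adjusted p = 0.0468). Wild-type 2 set much of that difference. Without it the Id4 change was -0.29 (adjusted p = 0.0554), and without any 1 of the others except wild-type 1 it was also not called (adjusted p = 0.0686 to 0.124).

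The E3 ubiquitin ligases that remove receptors and Smads split. Smurf1 read 7.22, 7.45 and 7.35 in wild-type and 7.79, 7.94 and 7.90 in knockout samples, 1.45-fold higher (log2 fold change 0.54, SE 0.09, adjusted p = 0.00273). The other Smurf1 probe set was not called (0.17). Smurf2 was lower at -0.39 (SE 0.09, adjusted p = 0.00951), and its other 2 probe sets were also called lower (-0.47 and -0.49). Bambi, a decoy receptor without a kinase domain, was lower at -0.44 (SE 0.10), and the type II receptors Acvr2a and Acvr2b were not called (-0.20 and -0.13). Bmp2k was not called (0.17). Tgfbi, a matrix protein named for its induction by TGF-beta, read 8.38, 7.86 and 7.89 against 8.52, 9.07 and 9.36, 1.92-fold higher (log2 fold change 0.94, SE 0.23, adjusted p = 0.0120), with knockout 1 only just above wild-type 1. Tgfb1i1, a focal adhesion protein also called Hic-5, was not called (0.16). Over the 61 genes the groups did not overlap for 27 on the higher and 18 on the lower side, where 62.9% of all genes did not overlap in 1 direction or the other.

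A list on the handling of latent TGF-beta holds genes that free the ligand and also genes that bind, tether or limit it. Of 19 measured, 10 were higher and 1 lower, with a median change of 0.44, against 21.6% higher and 27.7% lower over all genes. Among the 10 are the proteoglycans Dcn (1.30) and Bgn (0.98), which bind TGF-beta, and Nrros (0.68), which tethers its latent form, so the count is not one of activators alone. Dcn is also counted as a fibroblast marker, and Thbs1 and Itgb6 also as TGF-beta targets. Mmp14, a membrane-bound metalloproteinase, rose by 2.12 (SE 0.13), Thbs1, thrombospondin 1, which activates latent TGF-beta, by 1.81 (SE 0.09) and Lrg1, a secreted modulator of TGF-beta signalling in endothelium, by 1.76 (SE 0.20). Itgb3, an integrin chain, was lower at -0.44. The integrin chains best known for activation in epithelium, Itgb6 (0.30, SE 0.18) and Itgb8 (-0.37, SE 0.14, adjusted p = 0.0558), were not called. For Itgb8 every knockout sample lay below every wild-type sample. Of the remaining integrin chains, Itgav (0.63, SE 0.11) and Itgb1 (0.44, SE 0.08) were called higher and Itgb5 (0.19, SE 0.10) was not called. These chains were picked with their values known.

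Most TGF-beta target genes were higher, and the BMP target genes that were called were mostly lower. Of 22 TGF-beta targets 18 were higher and 2 lower, with a median change of 1.58, and 17 rose at least 2-fold. Over all 18193 genes 21.6% were called higher and 27.7% lower, and 990 were called at least 2-fold higher. At or above the median signal, where 19 of the targets lay, 31.4% of all genes were called higher. This list, like the others, was chosen with earlier results of these data known. Fn1, fibronectin, rose by 2.86, Col3a1, collagen III, by 2.76 and Timp1, an inhibitor of metalloproteinases, by 2.50. Angptl4, a secreted lipase inhibitor, was lower at -0.50 and Snai1, a repressor of epithelial genes, at -0.39. Of the 22 targets 6 also stand on the list of fibroblast markers, and of the other 16, 12 were higher and 2 lower with a median of 1.51. Immune markers had summed linear signals of 6260 to 9619 in wild-type and 37066 to 39474 in knockout samples, and proximal tubule markers 161918 to 172527 and 73565 to 80120. Ighm, an immunoglobulin gene, was the brightest immune marker in knockout samples (14.67, 14.66 and 14.48) and weighed most in their immune sums. The part of cell mixture in the changes of the target genes was not tested.

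Of 23 BMP targets, 6 of which are among the 61 genes, 1 was higher and 13 were lower, with a median of -0.31. Over all genes 21.6% were called higher and 27.7% lower. Tbx2, a T-box repressor, was lower at -0.92 (SE 0.12), Atoh8, a helix-loop-helix factor, at -0.65 (SE 0.11) and Smad6 at -0.55. Gata3, a transcription factor of the collecting duct, was higher at 1.23 (SE 0.18). Most of the lower genes were dim: below the median signal 10 of 13 were lower, and at or above it 3 of 10, with medians of -0.33 and -0.10. The general fall of dim probe sets in the knockout, given above for the BMP ligands, moves with this count, and its part in it was not tested.

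**Figure D4:**
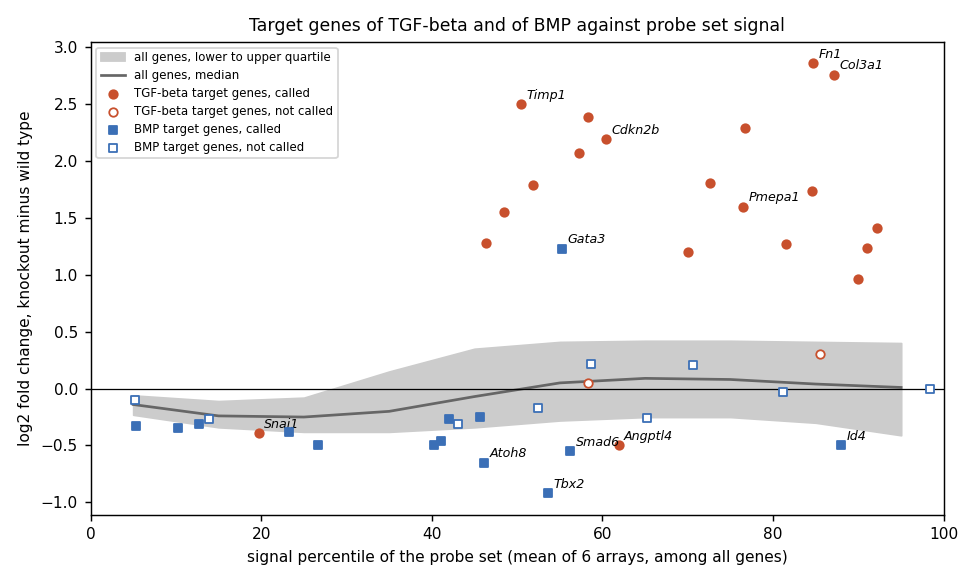
Log2 fold change (knockout minus wild type) of TGF-beta target genes (red circles) and BMP target genes (blue squares) against the signal percentile of the probe set among all genes; filled symbols were called and open ones not. The grey line and band give the median and quartiles of all genes in 10 bins of signal, with bin medians from -0.25 to 0.09; 18 TGF-beta targets lie above the band and most BMP targets lie inside or below it.

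Among 25 intracellular regulators 5 were higher and 6 lower, with a median change of 0.10. These shares were near those of all genes, 21.6% higher and 27.7% lower. Higher were Pmepa1, a feedback inhibitor that TGF-beta induces and that is also counted among the 22 targets, at 1.60 (SE 0.10), the immunophilin Fkbp1a, which holds type I receptors inactive, at 0.62 and the adaptor Tab2 at 0.47. Dab2, an endocytic adaptor of the proximal tubule, was lower at -0.91, the deubiquitinase Usp11 at -0.54 and the Smad partner Foxh1 at -0.51. Of 18 further BMP modulators 2 were higher and 5 lower, beside the same shares of all genes. Crim1, a membrane protein that binds BMPs, rose by 0.62 and the procollagen and chordin protease Bmp1 by 0.52, whereas Kcp, a kidney protein that enhances BMP signals, fell by 0.91, Sost, sclerostin, by 0.54 and Dand5, an antagonist of nodal, by 0.48. Sostdc1, a BMP antagonist of the distal tubule, had a change of 0.07 (SE 0.18) that was not called; it was picked with its value known.

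Of 9 co-receptors 2 were higher and 2 lower, shares near those of all genes (21.6% higher and 27.7% lower). Cd109, which binds TGF-beta, was higher at 0.62 and neuropilin 1, Nrp1, at 0.38. Endoglin, Eng, the co-receptor of endothelium and also counted among its markers, was lower at -0.62 and Rgma at -0.26. Of 10 other ligands of the superfamily none was higher and 6 were lower by limma, and all 10 lay below the median signal. Among all genes below the median signal 11.7% were called higher and 30.5% lower. The median change was -0.30 for the 10 ligands and -0.19 for those genes. The part of the general fall of dim probe sets in this count was not tested. Among the 10 ligands the widest falls were those of Gdf11 (-0.67), Lefty1 (-0.57) and Amh (-0.41).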

How the data were processed

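Total RNA from 6 samples was measured on 1 Affymetrix array each. The authors deposited log2 expression values made with RMA, per the submitters' processing notes, as a table of 45101 probe sets; no version or chip definition is stated, and a range of 2.9 to 14.8 fits a log2 scale. RMA gives no detection call, and log2 changes of dim genes are compressed. Arrays have no counting depth, and 3 samples per group limit the precision.

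Probe sets listing exactly 1 gene (34945) were named through the platform annotation and current RefSeq symbols (GRCm38.p6). Each of 18193 genes was represented by the probe set that was brightest on average. Groups were compared with limma 3.58.1 in R 4.3.3 (lmFit, eBayes, two-sided), with Benjamini-Hochberg adjustment over all genes and a threshold of 0.05. Of the 61 pathway genes, 39 had several probe sets. The fit was checked on simulated data.

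Genes given by the value of every sample were those called with a change of at least 0.5, and the ligands, receptors and Smads that define an arm; from each other list up to 3 called genes per direction were named. The arms, members and lists were chosen with earlier results of these data known. Summed linear signal is the sum of 2 to the power of the RMA values. Alternatives tried were a signal filter, averaging a gene's probe sets, a trended robust prior, re-centred, quantile or cyclic loess normalised values, array weights, a replicate block, each sample left out, adjustment over all probe sets and a threshold of 0.01. Replicate numbers are not stated to pair animals.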

Additional observations from a re-analysis of the deposited data

How the results depend on the processing

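Of the 38 calls, 19 held under every alternative that tested them and 26 with each sample left out in turn. Counts of genes higher ranged from 19 to 22 with 1 sample left out, and counts lower from 8 (without knockout 1) to 13; without knockout 3 there were 9 lower. In the TGF-beta arm the counts were 11 to 13 higher and 3 (without knockout 1) to 7 lower, with 4 without knockout 3, and in the BMP arm 6 to 8 higher and 3 to 5 lower, where 3 were lower without wild-type 3, without knockout 1 and without knockout 3. At an adjusted p under 0.01 there were 5 genes lower in all, 1 lower in the TGF-beta arm, and 5 higher and 3 lower in the BMP arm. In the brighter part of the genes (34 members), 15 were higher and 7 lower (8 and 3 in the TGF-beta arm, 5 and 3 in the BMP arm), fewer because fewer were tested, with arm medians of 0.76 and 0.15. Cyclic loess normalisation, chosen after seeing the data, left 3 genes lower in the TGF-beta arm. The BMP arm median changed sign with the setting, from -0.09 with re-centred arrays to 0.08 with quantile normalisation. Inhbb read 0.83 and was called higher in the mean of its probe sets, the cause being its discordant probe sets. Of the 23 genes not called, 10 were called in at least 1 alternative: Fst in 7, Acvr2a in 3, Acvr1b, Inha and Ltbp1 in 2 each, and Acvr2b, Acvrl1, Bmp5, Ski and Smad7 in 1 each. Over all genes the median change was -0.19 with re-centred arrays and -0.01 with cyclic loess, and lower genes made up 67.0% and 46.6% of calls, against 56.2%; among the 61 genes the lower share was 48.7% and 29.4%, against 39.5%.

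Deviations from the group means were correlated across genes at -0.10 to -0.13 for same-numbered samples and 0.01 to 0.09 for differently numbered ones. Deviations within a group depend on each other, so these values cannot decide whether the numbers pair the samples. With the replicate block 20 genes were higher and 13 lower; 6 calls were lost and 1 gained.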
